A study of Arabidopsis thaliana with 15 samples.

Results

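The genes described here were silent in wild-type (WT) Arabidopsis thaliana seedlings and were read in both of the severely affected mutants of the series. Members were chosen by their counts in WT and their levels in these mutants. A locus was taken if its counts summed to 5 or fewer over the 3 WT libraries and its mean level was at least 1 CPM in ebs shl lhp1 and at least 1 CPM in emf1. CPM is the count of a locus divided by the library total, times 1000000. Of 33602 counted loci, 11972 had 5 or fewer WT counts, and 7249 of those had at least 1 count in another genotype. At least 1 CPM was reached by 117 of the WT-silent loci in ebs shl lhp1 and by 42 in emf1, and 23 loci reached it in both. The rule also removed loci with a mean of 2 CPM or more in both lhp1 and ebs shl, of which there were 0, and 5 loci by name, of which AT3G22640 (PAP85, a seed storage protein gene) was the only one among the 23. This left 22 loci.

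Whole seedlings of the Col-0 accession, 3 weeks old, were grown on diluted Murashige and Skoog medium with 8 h of light and 16 h of darkness. The groups were ebs shl lhp1 (labelled a triple mutant), emf1, ebs shl (labelled a double mutant), lhp1 and WT, with 3 biological repeats and so 3 mRNA-seq libraries each. The labels name the mutated genes but not the alleles. RNA of ebs shl lhp1 and emf1 was isolated with the miRNeasy Micro kit and RNA of ebs shl, lhp1 and WT with the RNeasy Plus Mini kit, so a difference between the severe and the other genotypes cannot be told apart from a difference between kits.

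Polycomb group proteins keep developmental genes silent in tissues where they are not used, and they do so through the histone mark H3K27me3. LHP1 binds this mark with its chromodomain, EBS and SHL are related proteins with a BAH domain and a PHD finger that read histone H3 marks, and EMF1 is a plant protein that works with Polycomb complexes. In seedlings such silencing is best known at genes of flowers and seeds.

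Library totals were 11730989 to 16247262 counts, so that 1 count was worth 0.0615 to 0.0852 CPM. EBS stood at 1.79 to 2.34 CPM in ebs shl lhp1 and 1.85 to 3.62 CPM in ebs shl, against 25.9 to 28.3 CPM in WT. LHP1 stood at 17.98 to 21.40 CPM in ebs shl lhp1 and 11.5 to 11.7 CPM in lhp1, against 20.0 to 22.1 CPM in WT. SHL stood at 149 to 199 CPM in ebs shl lhp1 and 229 to 244 CPM in ebs shl, against 41.0 to 45.1 CPM in WT, and EMF1 at 18.9 to 19.6 CPM in emf1, against 29.5 to 29.7 CPM in WT. Counts over a whole gene do not check an allele that leaves a transcript, so ebs shl lhp1 is called the labelled triple mutant and ebs shl the labelled double mutant. Together, 5 markers of green tissue such as LHCB1.3 summed to 33078 to 40496 CPM in the labelled triple mutant, 51392 to 53600 CPM in emf1, 41801 to 47483 CPM in the labelled double mutant, 39747 to 43388 CPM in lhp1 and 45562 to 47063 CPM in WT. A list of 16 root markers summed to 35.7 to 48.0 CPM in the labelled triple mutant and 42.9 to 48.7 CPM in emf1, against 125 to 147 CPM in the labelled double mutant, 128 to 159 CPM in lhp1 and 119 to 172 CPM in WT. The root hair gene AGP30 was at 0 in both severe genotypes and the iron transporter gene IRT1 was at 0 in emf1; the part of tissue composition in the results was not tested. Counts of 4 nuclear ribosomal RNA loci, a list chosen after the values were seen, summed to 9869 to 16789 CPM in the labelled triple mutant and 5944 to 8289 CPM in emf1, against 2165 to 3308 CPM in the labelled double mutant, 2113 to 3283 CPM in lhp1 and 2341 to 3685 CPM in WT, and their part in the results was not tested either.

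By what their products are, 21 of the 22 loci fell into 6 groups. They code for cell wall enzymes, for regulators of transcription and growth, for calcium sensors, for proteins typical of seeds, for other known products, and for proteins of which little is known. AT3G48650 is a transcribed pseudogene in the annotation. None stood on the lists of floral organ identity, seed storage, seed regulator, endosperm, meristem, anther or pollen genes, and PAP85 was the only gene of those lists that met the thresholds. Of 15 tested floral organ identity genes 12 were called higher and 1 lower than WT in the labelled triple mutant, and 7 higher and 2 lower in emf1, by edgeR's test. Of 8 tested seed storage and late embryogenesis genes 6 were called higher and 1 lower in the labelled triple mutant, and 2 higher and 2 lower in emf1. Over all 20477 tested loci, 34.6% were called higher in the labelled triple mutant than in WT and 30.7% in emf1. Of the 22 listed floral genes 14 had 5 or fewer WT counts, and so had 16 of the 25 listed seed storage and late embryogenesis genes. Such a gene could pass the filter on low counts only by being high in a mutant. Its direction against WT was therefore largely fixed, and nothing is read from the calls on these 2 lists. The loci lay on every chromosome, with 3 on chromosome 1, 8 on chromosome 2, 6 on chromosome 3, 1 on chromosome 4 and 4 on chromosome 5, and none was the neighbour of another. Their median exonic length was 1268 bp and their median number of exons was 3, against 1776 bp and 5 in all 20457 tested loci matched to the annotation. The GC content was close, at 38.0% and 38.8%.

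The sequence around the transcription start was read for all 22, from 250 bases before it to 50 bases after, out of the RefSeq annotation of assembly TAIR10.1 matched by locus number. The counts were made on TAIR10. With 7 motifs searched on both strands, several promoters held repeated matches. Among them were BRC1 with GAGAGA, TDR1 with CACGTG, and AT5G61610 and RTFL21 with CATGCA. As examples of repeated matches, 2 other promoters are shown. The first belongs to AT1G11370, a pectin lyase-like gene (chr1:3831019-3831318, minus strand), and its capitals mark 4 overlapping copies of CATGCA, the core of the RY element known from seed genes. The next belongs to DIN11, a dark-inducible gene for a 2-oxoglutarate-dependent dioxygenase (chr3:18393497-18393796, plus strand). Capitals in it mark the G-box CACGTG, which holds the ABRE core ACGTG.
AT1G11370: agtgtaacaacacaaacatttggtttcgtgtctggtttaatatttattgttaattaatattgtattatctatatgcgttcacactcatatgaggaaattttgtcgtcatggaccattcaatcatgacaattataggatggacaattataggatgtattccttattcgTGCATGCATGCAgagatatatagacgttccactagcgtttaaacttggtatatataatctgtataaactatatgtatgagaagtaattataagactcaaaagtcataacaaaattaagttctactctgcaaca
DIN11: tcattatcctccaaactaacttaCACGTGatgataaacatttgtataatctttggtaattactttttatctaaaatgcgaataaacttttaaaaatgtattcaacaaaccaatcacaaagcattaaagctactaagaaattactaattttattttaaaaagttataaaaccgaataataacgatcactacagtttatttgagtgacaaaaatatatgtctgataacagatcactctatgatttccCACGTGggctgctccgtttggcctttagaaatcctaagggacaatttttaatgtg

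The RY core was in 4 of the 22 promoters (18.2%), namely those of AT1G11370, RTFL21, AT5G24820 and AT5G61610, against 10.4% of all 32834 promoters of the same length. The G-box was in 3 (13.6%), with those of TDR1 and DIN11 among them, against 6.90% of all. The ABRE core was in 7 (31.8%, against 25.4%) and the GA repeat GAGAGA in 7 (31.8%, against 28.7%). The telobox AAACCCTA was in 1 (4.55%, against 6.22%), the rapid stress response element CGCGTT in 1 (4.55%, against 3.45%) and the sugar response core TATCCA in 2 (9.09%, against 15.8%). These are matches of letters in the window and are given as a description.

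Taken over all 22 loci, the summed level was 117, 120 and 106 CPM in the labelled triple mutant's libraries and 82.8, 76.5 and 80.8 CPM in those of emf1. It was 12.9, 6.07 and 7.94 CPM in the labelled double mutant, 2.49, 2.71 and 7.41 CPM in lhp1, and 0.977, 2.21 and 1.14 CPM in WT. The 6 severe libraries therefore lay far above the other 9. The rule required this of the means against WT only. For the labelled double mutant and lhp1 it removed only loci with 2 CPM or more in both. In whole seedlings, few cells with much of a transcript and many cells with little of it cannot be told apart. A level of 1 CPM was passed by 15 to 18 of the loci in a library of the labelled triple mutant, 17 to 20 in emf1, 2 to 4 in the labelled double mutant, 0 or 1 in lhp1 and 0 in WT. All 6 severe libraries were at 1 CPM or more for 8 loci, and all 6 lay above the other 9 libraries for 14 loci, where 9.81% of all 20477 tested loci did so; as the rule used these libraries, nothing is read from that count. At least 5 CPM in both severe means was reached by 4 loci, which were RTFL21, AT3G48650, DIN11 and AT5G24820.

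**Figure D1:**
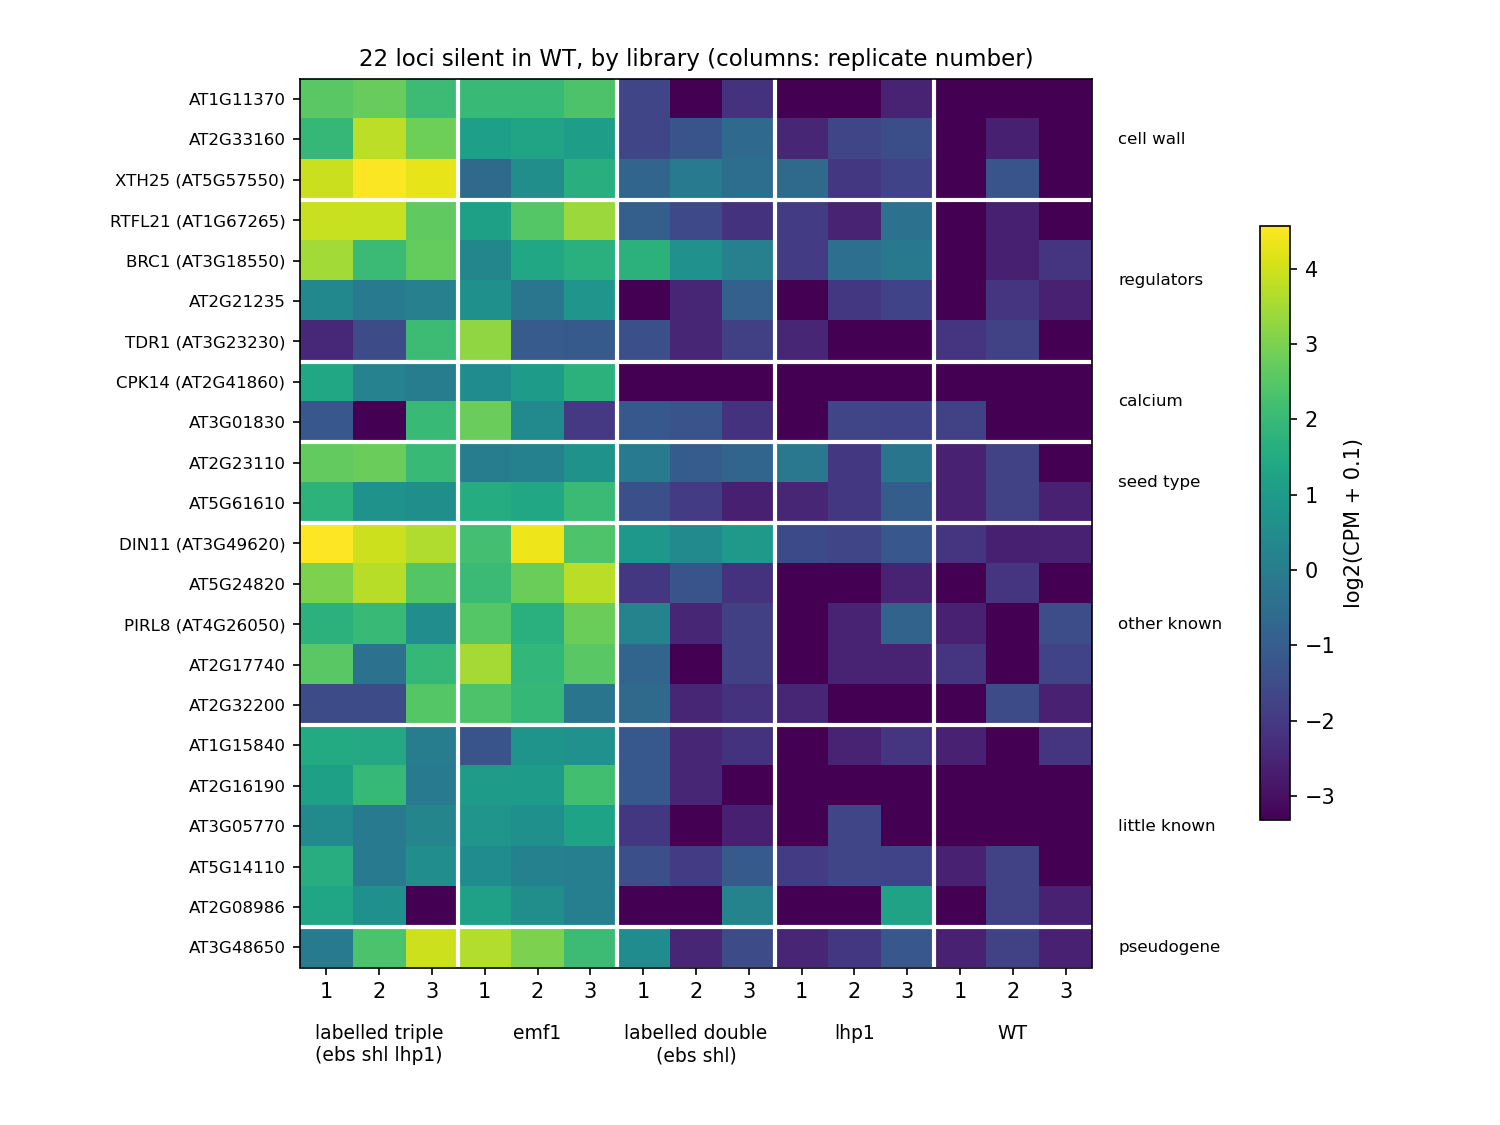
Level of each of the 22 loci (down the page, by product group, with the pseudogene last) in each of the 15 libraries (across, by genotype and replicate number), as log2(CPM + 0.1) in colour. The 6 libraries on the left are bright for most loci, and TDR1, AT3G01830, AT2G32200 and AT2G08986 are dark in some of them.

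Because the rule used WT, the comparisons with WT are a description only. In edgeR's quasi-likelihood fit 21 of the 22 loci passed the filter on low counts, TDR1 being the exception. Of these 20 were called higher in the labelled triple mutant than in WT, where 34.6% of all 20477 tested loci were, and 21 were called higher in emf1 than in WT, where 30.7% of all were. In the labelled double mutant 2 were called higher than in WT (5.31% of all), and in lhp1 0 were (0.772% of all), with 2 at an unadjusted p under 0.05. In WT 4 loci had no count (AT1G11370, AT2G16190, CPK14 and AT3G05770), 7 had 1 to 3 counts, 4 had 4 and 7 had 5. A count of 0 over the 3 WT libraries allows a level of up to 0.0650 CPM, by counting error alone. Just inside the CPM limit were AT2G21235, whose lower mean was 1.01 CPM, and AT3G05770 with 1.08 CPM. Just outside it were AT5G05300 with 0.976 CPM and AT1G20310 with 0.928 CPM. A further 12 loci missed only by having 6 WT counts, among them AT3G21080, with means of 34.4 CPM in the labelled triple mutant and 20.0 CPM in emf1, and AT5G42900, with 12.1 and 5.98 CPM in the same genotypes.

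Of the 3 genes for cell wall enzymes, XTH25 and AT2G33160 were called higher in the labelled triple mutant than in emf1, where 23.6% of all tested loci were, and AT1G11370 did not pass the test. XTH25 codes for a xyloglucan endotransglucosylase/hydrolase, an enzyme that cuts and rejoins the xyloglucan chains tying cellulose together in growing walls. It stood at 15.3, 23.1 and 19.3 CPM in the labelled triple mutant and at 0.568, 1.40 and 2.98 CPM in emf1. In the other libraries it stood at 0.494, 0.866 and 0.615 CPM in the labelled double mutant, 0.561, 0.143 and 0.202 CPM in lhp1, and 0, 0.316 and 0 CPM in WT. The labelled triple mutant was thus above every other library, and only emf1 replicates 2 and 3 were above all of the milder mutants. XTH25 was higher in the labelled triple mutant than in emf1 by 3.46 on the log2 scale (SE 0.48, edgeR adjusted p = 7.67e-05).

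AT2G33160 codes for a polygalacturonase, an enzyme that cuts pectin. It had 3.75, 13.6 and 6.96 CPM in the labelled triple mutant and 2.08, 2.35 and 2.01 CPM in emf1. All other libraries were at 0.554 CPM or below. The 2 severe genotypes did not overlap, and the difference was 1.80 on the log2 scale (SE 0.41, edgeR adjusted p = 0.00288). The locus overlaps AT2G33170, a receptor kinase gene on the opposite strand, which averaged 31.4 ± 3.45 CPM in the labelled triple mutant and 28.1 ± 1.35 CPM in emf1 (SD, n = 3 each), with a log2 difference of 0.04 (edgeR adjusted p = 0.828). In WT, AT2G33170 averaged 28.4 ± 4.36 CPM (SD, n = 3) while AT2G33160 had 1 count. The strand setting of the counting is not given in the sources used here. What AT2G33170 added to the level of AT2G33160 in the mutants was not tested.

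AT1G11370, the pectin lyase-like gene whose RY cluster is shown above, was among the steadiest loci. Its values were 5.797, 6.55 and 4.13 CPM in the labelled triple mutant, 3.91, 3.88 and 5.06 CPM in emf1, and 0.212 CPM or less in every other library. With no count in WT, its level was set against a floor of 3 counts over the 3 WT libraries. It was 82.1-fold that floor in the labelled triple mutant and 65.2-fold in emf1. The lower 95% limits of the ratio to WT, from counting error alone, were 66.2-fold in the labelled triple mutant and 52.5-fold in emf1. Between the severe genotypes the log2 difference was 0.24 (95% interval -0.45 to 0.92, edgeR adjusted p = 0.582).

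Regulators of transcription and growth included BRC1, a TCP transcription factor that holds axillary buds dormant. BRC1 stood at 10.9, 4.08 and 6.41 CPM in the labelled triple mutant, 1.14, 2.48 and 3.13 CPM in emf1, 3.25, 1.497 and 0.985 CPM in the labelled double mutant, 0.160, 0.642 and 0.808 CPM in lhp1, and 0, 0.0632 and 0.134 CPM in WT. The labelled triple mutant lay above emf1 without overlap, whereas the labelled double mutant and emf1 overlapped. The log2 difference between the labelled triple mutant and emf1 was 1.55 (SE 0.49, edgeR adjusted p = 0.0199). It missed the threshold without replicate 1 of the labelled triple mutant (edgeR adjusted p = 0.116) and without replicate 1 of emf1 (edgeR adjusted p = 0.0751).

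RTFL21 codes for a small peptide of the ROTUNDIFOLIA-like (DEVIL) family, known for altering organ shape when overexpressed. Per kb of exon, RTFL21 had the highest level of the 22 in both severe genotypes, at 17.7 ± 7.52 CPM per kb in the labelled triple mutant and 8.89 ± 6.07 CPM per kb in emf1 (SD, n = 3 each). XTH25 followed in the labelled triple mutant at 16.3 ± 3.26 CPM per kb, within that spread. In CPM, RTFL21 had 14.9, 14.8 and 6.10 in the labelled triple mutant, 2.15, 5.53 and 10.3 in emf1, and 0.673 or less in the other 9 libraries, with a single count in WT. The severe genotypes overlapped through replicate 3 of each, and the log2 difference was 0.89 (95% interval -0.18 to 1.96, edgeR adjusted p = 0.165). Without emf1 replicate 3 it was 1.53 and passed the test (edgeR adjusted p = 0.0289). Over all fits with replicates left out, the difference ranged from 0.49 to 1.53, with edgeR adjusted p up to 0.427, and it passed in that fit only.

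AT2G21235, a gene for a bZIP transcription factor, stood close to the limit of the rule in each severe library. It had 1.19, 0.851 and 0.985 CPM in the labelled triple mutant, 1.45, 0.763 and 1.64 CPM in emf1, and 0.431 CPM or less elsewhere. TDR1, also called ERF98, is a transcription factor of the ethylene response factor family. It owed its place to 1 library in each severe genotype, with 0.0852, 0.255 and 4.13 CPM in the labelled triple mutant and 9.46, 0.381 and 0.372 CPM in emf1, and it was 0.282 CPM or less in the others. Of the 22 loci it alone did not pass the filter on low counts, although each severe library held counts of it.

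Among the calcium genes, an even and an uneven locus stood side by side. CPK14, a calcium-dependent protein kinase, had 2.47, 1.02 and 0.924 CPM in the labelled triple mutant and 1.32, 1.97 and 3.28 CPM in emf1. It was the only one of the 22 with no count in all 9 other libraries. Its level was 21.7-fold the WT floor in the labelled triple mutant and 32.8-fold in emf1. The lower limits of its ratio to WT, from counting error alone, were 17.1-fold in the labelled triple mutant and 26.2-fold in emf1. AT3G01830, a calcium-binding EF-hand protein, was by contrast concentrated in replicate 3 of the labelled triple mutant (0.341, 0 and 3.88 CPM) and replicate 1 of emf1 (6.69, 1.27 and 0.149 CPM). Other libraries had at most 0.353 CPM. AT3G01830 overlaps LYK2, which is on the opposite strand and was itself low, at 0.123 ± 0.213 CPM in the labelled triple mutant and 0.363 ± 0.405 CPM in emf1 (SD, n = 3 each), so reads of the 2 loci may not be told apart.

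Some of the uneven loci shared their highest libraries. TDR1, AT3G01830, AT2G32200 and AT3G48650 were each highest in replicate 3 among the labelled triple mutant's libraries and in replicate 1 among those of emf1. They were grouped by these libraries, and other uneven loci differed. In replicate 3 of the labelled triple mutant, AT2G08986 had 0 CPM and AT2G17740 had 3.76 CPM, and both were highest in its replicate 1. AT2G32200 codes for a small cysteine-rich transmembrane protein and had 0.256, 0.255 and 5.54 CPM in the labelled triple mutant, 5.05, 3.69 and 0.745 CPM in emf1, and at most 0.565 CPM elsewhere. The pseudogene AT3G48650 had 0.852, 4.94 and 15.4 CPM in the labelled triple mutant and 12.5, 7.88 and 4.17 CPM in emf1. Its libraries overlapped widely, and the log2 difference was -0.33 (95% interval -1.81 to 1.15, edgeR adjusted p = 0.731). The level of early genes of touch and wounding was read in the same libraries. A list of 12 such genes, chosen after the values were seen, summed to 691, 1316 and 2568 CPM in the labelled triple mutant and 1188, 849 and 1139 CPM in emf1, against 547, 125 and 125 CPM in the labelled double mutant, 99.8, 149 and 151 CPM in lhp1, and 151, 491 and 134 CPM in WT. None of its genes was at 0 in any genotype. The list was highest where the 4 loci were highest in the labelled triple mutant, while in emf1 replicates 1 and 3 were close on the list and far apart on the loci. In the labelled double mutant replicate 1 was highest on the list and for each of the 4 loci, at 19 counts or fewer. In WT replicate 2 was highest on the list and for all of them but AT3G01830, at 4 counts or fewer. In lhp1 only AT3G48650 was highest where the list was, in replicate 3. The part of the list in their levels was not tested.

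**Figure D2:**
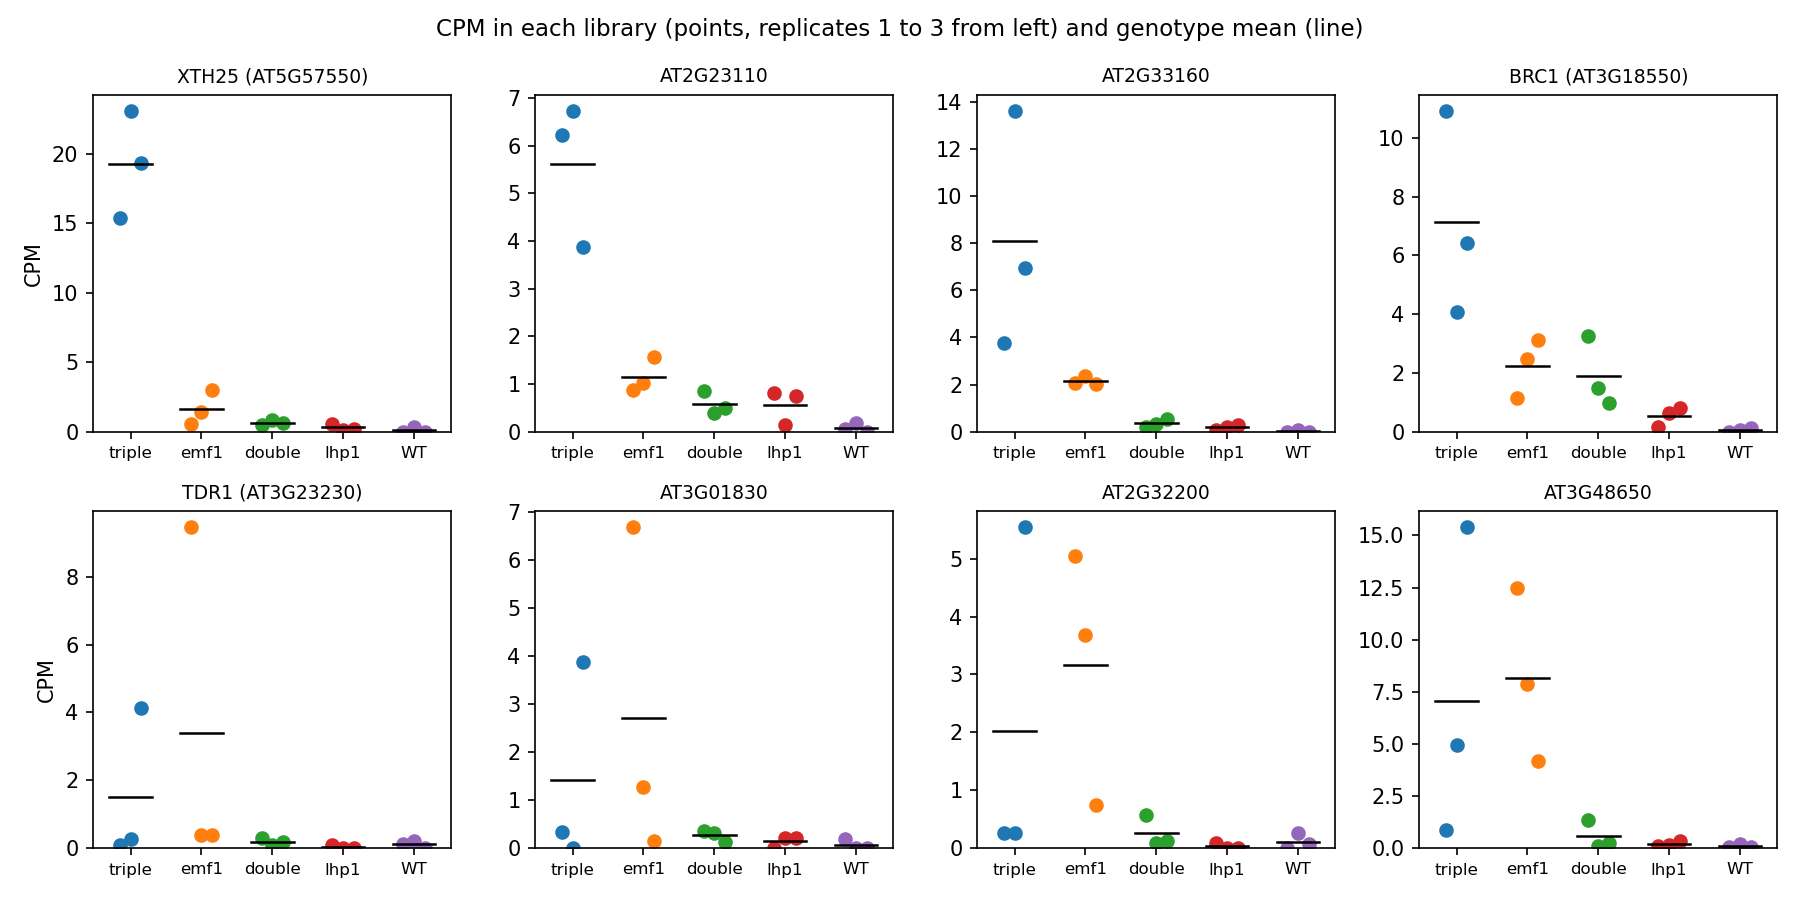
CPM (vertical axis, from 0) in each library (points, replicates 1 to 3 from left) with the genotype mean (line), for the labelled triple mutant, emf1, the labelled double mutant, lhp1 and WT. In the upper row are the 4 loci called higher in the labelled triple mutant than in emf1, such as XTH25 at 15.3 to 23.1 against 0.568 to 2.98 CPM; in the lower row are 4 loci whose highest libraries were replicate 3 in the labelled triple mutant and replicate 1 in emf1.

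By product family, 2 loci were grouped as coding for proteins typical of seeds. Such a family is not limited to seeds, as AT2G23120, another group 6 LEA gene, averaged 64.6 CPM in WT seedlings. AT2G23110 codes for a group 6 late embryogenesis abundant (LEA) protein, of a class of proteins that protect cells during drying. It had 6.22, 6.72 and 3.88 CPM in the labelled triple mutant, 0.883, 1.02 and 1.56 CPM in emf1, 0.847, 0.394 and 0.492 CPM in the labelled double mutant, 0.802, 0.143 and 0.741 CPM in lhp1, and 0.0651, 0.190 and 0 CPM in WT. The labelled triple mutant stood clear of all others, and the lowest library of emf1 lay just above the highest of the labelled double mutant. The log2 difference between the severe genotypes was 2.16 (SE 0.44, edgeR adjusted p = 0.00139). AT5G61610, of the oleosin family of oil body proteins, ran in the other direction, with 3.32, 1.53 and 1.42 CPM in the labelled triple mutant, 2.84, 2.48 and 4.10 CPM in emf1 and at most 0.404 CPM elsewhere. Its log2 difference was -0.72 (95% interval -1.59 to 0.15, edgeR adjusted p = 0.17). For comparison, 25 seed storage and LEA genes that are not among the 22 summed to 107 to 122 CPM in the labelled triple mutant, 42.3 to 65.6 CPM in emf1, 56.4 to 60.7 CPM in the labelled double mutant, 18.4 to 27.7 CPM in lhp1 and 12.7 to 15.7 CPM in WT, with 3 of the 25 at 0 in the labelled triple mutant and 7 in emf1.

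Among the other known products, DIN11 was read in all 15 libraries. It had 23.6, 15.4 and 12.3 CPM in the labelled triple mutant, 4.48, 20.4 and 5.14 CPM in emf1, 1.77, 1.26 and 1.78 CPM in the labelled double mutant, 0.241, 0.214 and 0.337 CPM in lhp1, and 0.130, 0.0632 and 0.0669 CPM in WT. The order of the genotype means was steady from the labelled triple mutant down to WT, and only the severe genotypes overlapped, through emf1 replicate 2. The log2 difference between them was 0.67 (95% interval -0.24 to 1.57, edgeR adjusted p = 0.218), and without emf1 replicate 2 it was 1.68 (edgeR adjusted p = 0.000238). Over all fits with replicates left out, the difference ranged from 0.32 to 1.68, with edgeR adjusted p up to 0.595, and it passed the test in that fit only. The name DIN11 marks a gene induced in the dark and by sugar shortage. The 7 other DIN genes, none of them silent in WT, were all called higher than WT in the labelled triple mutant, where 34.6% of all loci were, and in emf1, where 30.7% of all were. DIN6 (ASN1), an asparagine synthetase, averaged 1691 ± 472 CPM in the labelled triple mutant, 987 ± 490 CPM in emf1 and 98.5 ± 102 CPM in WT (SD, n = 3 each).

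AT5G24820, an aspartyl protease gene, had means of 8.85 CPM in the labelled triple mutant and 8.10 CPM in emf1. Its values were 7.93, 13.2 and 5.42 CPM in the labelled triple mutant, 4.10, 6.80 and 13.4 CPM in emf1, and at most 0.315 CPM elsewhere, with a log2 difference of 0.01 (95% interval -0.89 to 0.92, edgeR adjusted p = 0.984). PIRL8, a leucine-rich repeat protein related to Ras-binding proteins of animals, had 3.24, 3.91 and 1.35 CPM in the labelled triple mutant and 5.55, 3.11 and 6.85 CPM in emf1, with 1.06 CPM in replicate 1 of the labelled double mutant. AT2G17740, a cysteine- and histidine-rich protein with C1 domains, had 5.71, 0.681 and 3.76 CPM in the labelled triple mutant and 11.3, 3.62 and 5.73 CPM in emf1. Both of these had higher means in emf1, with log2 differences of -1.01 for PIRL8 (95% interval -2.30 to 0.29, edgeR adjusted p = 0.195) and -1.16 for AT2G17740 (95% interval -2.45 to 0.13, edgeR adjusted p = 0.133), and overlapping libraries.

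Little is known of the other 5 products, whose severe means were 1.08 to 2.78 CPM. AT2G16190 had no count in lhp1 and WT, and stood at 2.13, 3.83 and 0.862 CPM in the labelled triple mutant and 1.89, 1.97 and 4.47 CPM in emf1. AT1G15840 had 2.73, 2.64 and 0.924 CPM in the labelled triple mutant and 0.315, 1.59 and 1.49 CPM in emf1. AT5G14110 had 2.90, 0.851 and 1.35 CPM in the labelled triple mutant and 1.32, 1.02 and 0.968 CPM in emf1. The libraries of the severe genotypes overlapped for all 3. AT3G05770 was the only locus of the 22 that lay lower in the labelled triple mutant without overlap, at 1.28, 0.851 and 1.11 CPM against 1.64, 1.46 and 2.31 CPM in emf1, and its log2 difference of -0.85 did not pass the test (95% interval -1.84 to 0.14, edgeR adjusted p = 0.158). AT3G05770 overlaps AT3G05760 on the opposite strand. AT3G05760 averaged 25.6 ± 0.920 CPM in the labelled triple mutant, 18.4 ± 1.31 CPM in emf1 and 16.5 ± 1.47 CPM in WT (SD, n = 3 each). In WT AT3G05770 had no count, and what AT3G05760 added to it in the mutants was not tested. Of the bases of AT3G05770, 567 align to AT1G54300 at 94.0% identity, so its level is uncertain.

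AT2G08986 stood apart, as its level followed single libraries in several genotypes. It had 2.39, 1.45 and 0 CPM in the labelled triple mutant, 2.21, 1.40 and 0.968 CPM in emf1, 0, 0 and 1.05 CPM in the labelled double mutant, 0, 0 and 2.22 CPM in lhp1, and 0, 0.190 and 0.0669 CPM in WT. Replicate 3 of lhp1 was thus above 5 of the 6 severe libraries. In the annotation the locus has 46 exons, and 651 of its 3657 bases align to the neighbouring locus AT2G07981 at 92.0% identity. Its coefficient of variation between replicates, estimated by edgeR, was 157%, against a median of 41.4% over the tested members and 13.2% over all tested loci.

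Setting the labelled triple mutant against emf1, which shared the RNA kit, 4 of 21 tested loci were called higher in the labelled triple mutant, where 23.6% of all tested loci were. These were XTH25, AT2G23110, AT2G33160 and BRC1. By edgeR's test 0 were called lower, where 20.5% of all were, with 0 lower at an unadjusted p under 0.05 and 0 by DESeq2. The share called higher, 4 of 21, was near that of all loci. The members varied more between replicates, with a median coefficient of variation of 41.4%, against 13.2% over all tested loci. A difference of the same size was therefore harder to detect in them, and nothing is read from the 0 called lower. Log2 differences were positive for 10 and negative for 11 of the 21, and their median was -0.33, against 0.05 over all tested loci. The labelled triple mutant's libraries lay above those of emf1 without overlap for 4 of the 21, the called loci, where 31.8% of all tested loci did so, and below them for 1, AT3G05770, where 16.7% of all did. Without replicate 3 of the labelled triple mutant, AT2G32200 (log2 difference -3.71, edgeR adjusted p = 0.00697) and AT3G01830 (-4.08, edgeR adjusted p = 0.0354) were called lower. Without its replicate 1, AT2G17740 (-1.80, edgeR adjusted p = 0.0499) and AT5G61610 (-1.27, edgeR adjusted p = 0.0312) were. With the replicate number as a block, AT2G17740 was called lower at -1.33 (edgeR adjusted p = 0.0172).

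**Figure D3:**
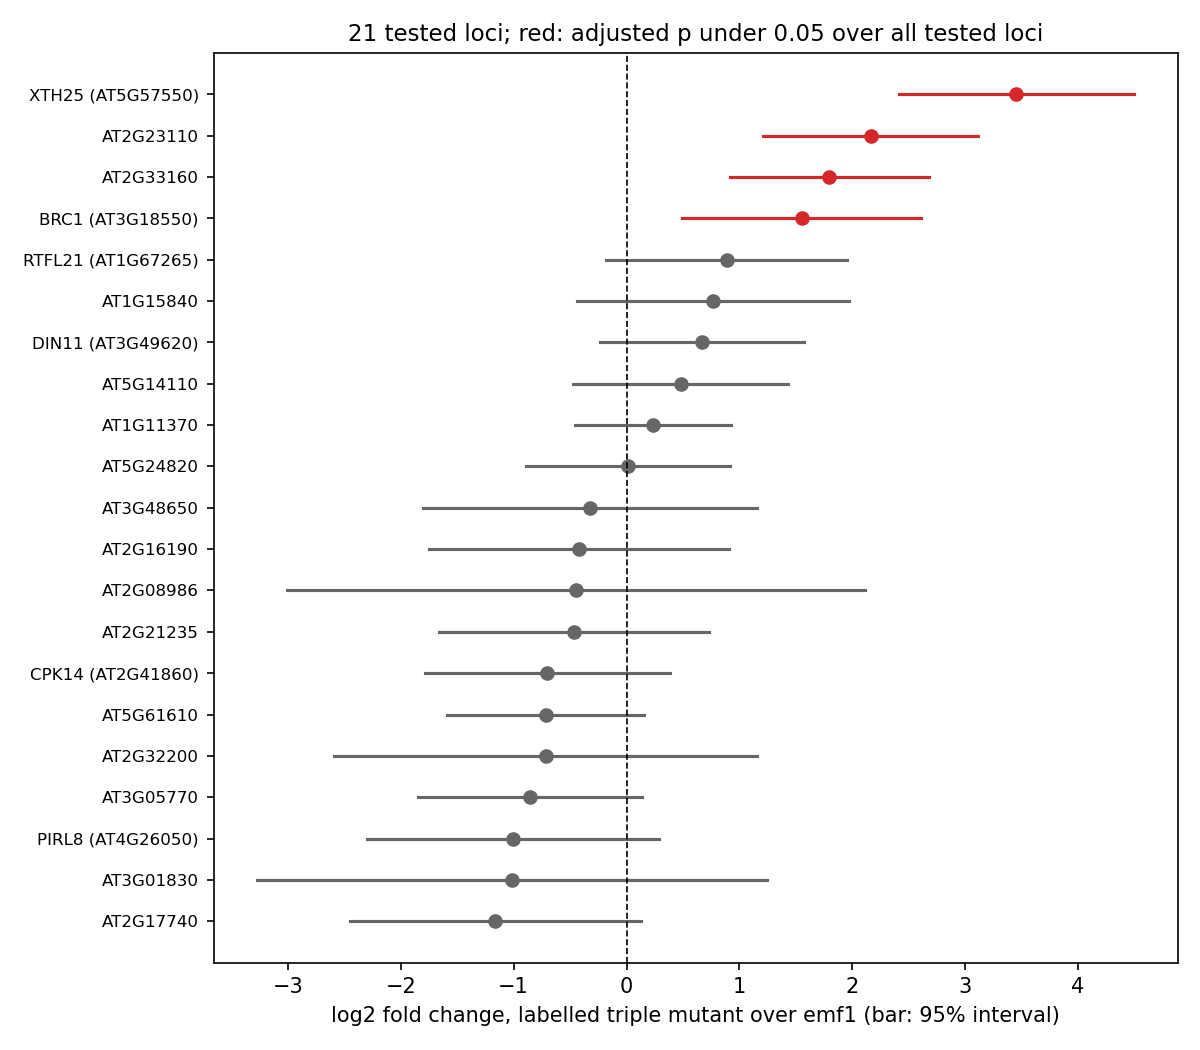
Log2 fold change of the labelled triple mutant over emf1 (horizontal axis) with its 95% interval (bars) for the 21 tested loci, in order of size. The 4 loci in red passed an edgeR adjusted p of 0.05, from XTH25 at 3.46 to BRC1 at 1.55, and the intervals of the other 17 include 0.

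Families of XTH25, BRC1, RTFL21, CPK14 and PIRL8 were described from the loci that carry the family name. Of these genes only XTH25 and BRC1 were called between the severe genotypes. Of 28 other tested XTH genes, 9 were called higher in the labelled triple mutant than in emf1 and 4 lower, beside 23.6% higher and 20.5% lower over all tested loci, the background for each family here. Among those higher was XTH33, with 24.9 ± 8.95 CPM in the labelled triple mutant, 3.08 ± 2.23 CPM in emf1 and 1.59 ± 0.605 CPM in WT (SD, n = 3 each). XTH24 had 3489 ± 856 CPM in the labelled triple mutant, 634 ± 224 CPM in emf1 and 50.03 ± 10.8 CPM in WT. XTH31 was lower, at 11.99 ± 3.90 CPM in the labelled triple mutant and 52.1 ± 18.6 CPM in emf1, against 186 ± 52.1 CPM in WT. For BRC1, 4 of 19 other tested TCP genes were called higher and 4 lower in the labelled triple mutant than in emf1. Among the relatives of RTFL21, 2 of 12 tested genes (RTFL7 and RTFL10) were called higher and 0 lower, and 14 of the 23 relatives had a mean under 1 CPM in each of the 5 genotypes. Of 25 other tested CPK genes 5 were called higher and 2 lower, and of 7 other tested PIRL genes 1 (PIRL5) was called higher and 0 lower.

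Neighbouring loci were not used by the rule. The 22 loci had 44 direct neighbours, of which 18 had 5 or fewer WT counts and 25 passed the filter. Of those 25, 16 (64%) were called higher in the labelled triple mutant than in WT, where 34.6% of all tested loci were, and 15 (60%) were called higher in emf1 than in WT, where 30.7% of all were. Called lower than WT were 5 (20%) in the labelled triple mutant and 1 (4%) in emf1, and the share of all loci called lower is not given here. Both comparisons use the same WT libraries. No test was made of the difference from all loci, and a neighbour that is silent in WT could pass the filter only by being high in a mutant. Of the tested neighbours, only AT1G11362, TCP1 and AT2G07981 had 5 or fewer WT counts. AT1G11362 was called higher than WT in both severe genotypes, AT2G07981 in the labelled triple mutant only and TCP1 in neither.

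AT2G32200 lies between close relatives, AT2G32190 and AT2G32210, that code for the same kind of protein. AT2G32190 averaged 4.86 ± 5.56 CPM in the labelled triple mutant, 6.30 ± 3.57 CPM in emf1 and 1.10 ± 0.486 CPM in WT, and AT2G32210 averaged 5.93 ± 8.20 CPM in the labelled triple mutant, 7.60 ± 4.22 CPM in emf1 and 1.06 ± 0.113 CPM in WT (SD, n = 3 each). Both were called higher than WT in the labelled triple mutant (edgeR adjusted p = 0.0106 for AT2G32190 and 0.0109 for AT2G32210) and in emf1 (edgeR adjusted p = 0.00377 for AT2G32190 and 0.00467 for AT2G32210). AT2G23110 is followed by AT2G23120, which also codes for a group 6 LEA protein and was expressed in WT. AT2G23120 averaged 128 ± 11.5 CPM in the labelled triple mutant, 55.3 ± 4.55 CPM in emf1 and 64.6 ± 1.85 CPM in WT, and like its neighbour was higher in the labelled triple mutant than in emf1 (log2 difference 1.10, edgeR adjusted p = 1.33e-06).

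XTH25 lies between XTH13 and TCH4 (XTH22), which both differed from WT but in opposite directions. TCH4 averaged 421 ± 134 CPM in the labelled triple mutant, 289 ± 159 CPM in emf1 and 94.4 ± 105 CPM in WT, whereas XTH13 averaged 0.0694 ± 0.0631 CPM in the labelled triple mutant, 0.0212 ± 0.0367 CPM in emf1 and 0.781 ± 0.227 CPM in WT. Neither passed edgeR's test between the severe genotypes (adjusted p = 0.628 for TCH4 and 0.429 for XTH13). The neighbours of DIN11 and TDR1 were near 0. AT3G49630, which aligns to DIN11 at 88.0% identity, averaged 0.131 ± 0.159 CPM in the labelled triple mutant, 0.0847 ± 0.147 CPM in emf1 and 0.195 ± 0.339 CPM in WT (SD, n = 3 each). Of the ERF genes beside TDR1, ERF1 averaged 0.471 ± 0.494 CPM in the labelled triple mutant, 0.239 ± 0.176 CPM in emf1 and 0.0651 ± 0.00185 CPM in WT, and ESE1 was at 0 in all 3.

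**Figure D4:**
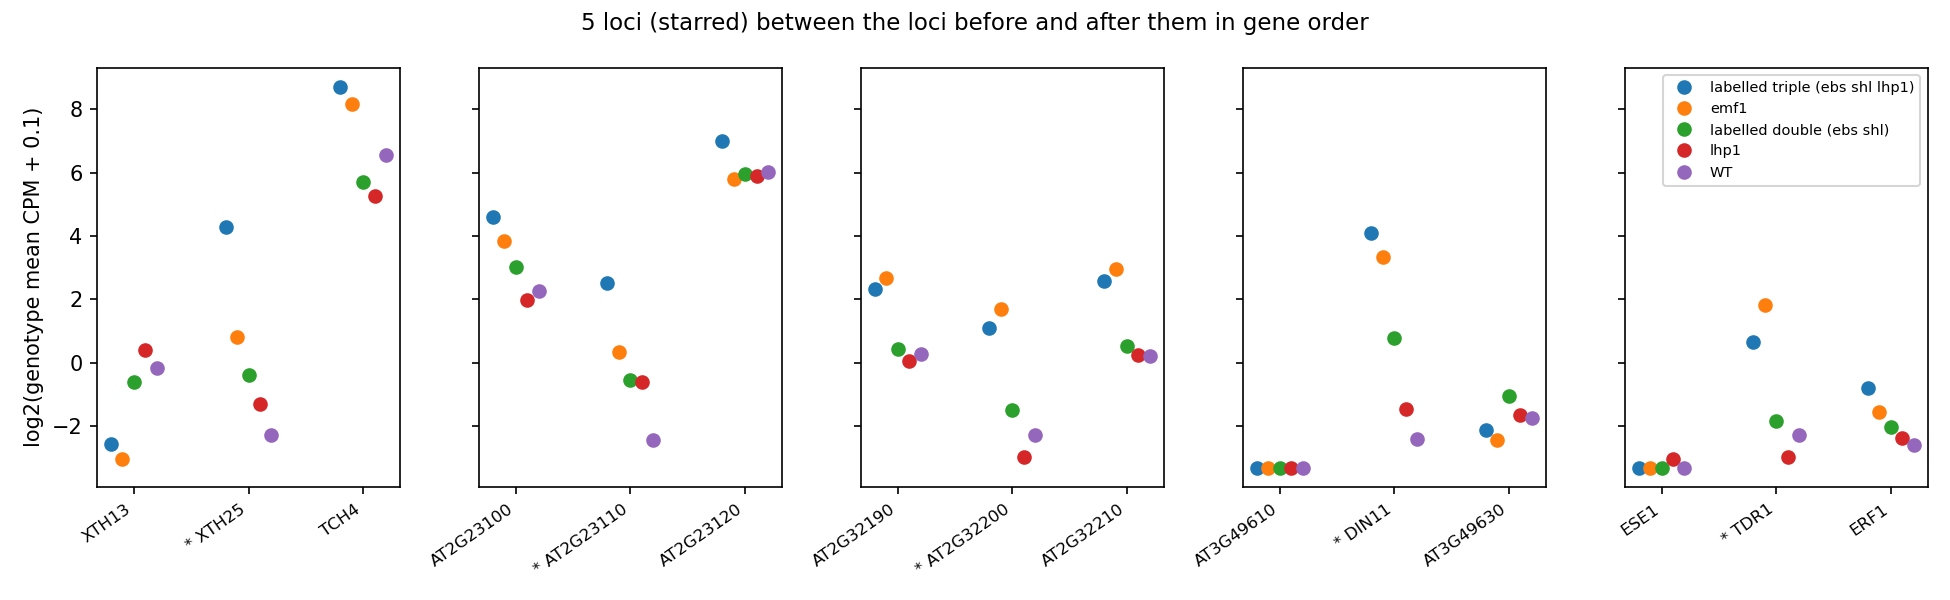
Genotype mean levels as log2(CPM + 0.1) of XTH25, AT2G23110, AT2G32200, DIN11 and TDR1 (starred) and of the locus before and after each in gene order. Neighbours of AT2G32200 are highest in the same 2 genotypes as it is, while XTH13 and the neighbours of DIN11 and TDR1 stay low in the severe genotypes.

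Outside the severe genotypes, expression of the 22 loci was slight. Their summed level averaged 8.95 ± 3.50 CPM in the labelled double mutant and 4.20 ± 2.78 CPM in lhp1 (SD, n = 3 each), with overlapping libraries. The mean was higher in the labelled double mutant than in lhp1 for 17 loci, lower for 4 and equal at 0 for CPK14. The log2 difference was positive for 16 of the 21 tested loci and for 50% of all tested loci. Most of these means rest on few counts. A mean of 1 CPM or more was found in the labelled double mutant for BRC1 (1.91 ± 1.19 CPM) and DIN11 (1.60 ± 0.297 CPM) and in lhp1 for none, where BRC1 averaged 0.537 ± 0.336 CPM and DIN11 0.264 ± 0.0646 CPM (SD, n = 3 each). For both genes the 3 libraries of the labelled double mutant lay above the 3 of lhp1, as they did for 3 of the 21 tested loci and 15.1% of all. By edgeR's test 0 of 21 loci were called higher in the labelled double mutant than in lhp1 (3.67% of all tested loci were) and 0 lower (1.39% of all were), with 2 higher and 0 lower at an unadjusted p under 0.05. Those 2 were DIN11 (log2 difference 2.57, 95% interval 0.89 to 4.25, edgeR adjusted p = 0.0789) and BRC1 (log2 difference 1.78, 95% interval 0.44 to 3.12, edgeR adjusted p = 0.127). DESeq2 called DIN11 higher (adjusted p = 0.00338) and 0 loci lower. Apart from DIN11, BRC1 and AT2G08986, no locus had more than 28 counts over the 3 libraries of either genotype, so that small differences were not detectable at this depth.

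**Figure D5:**
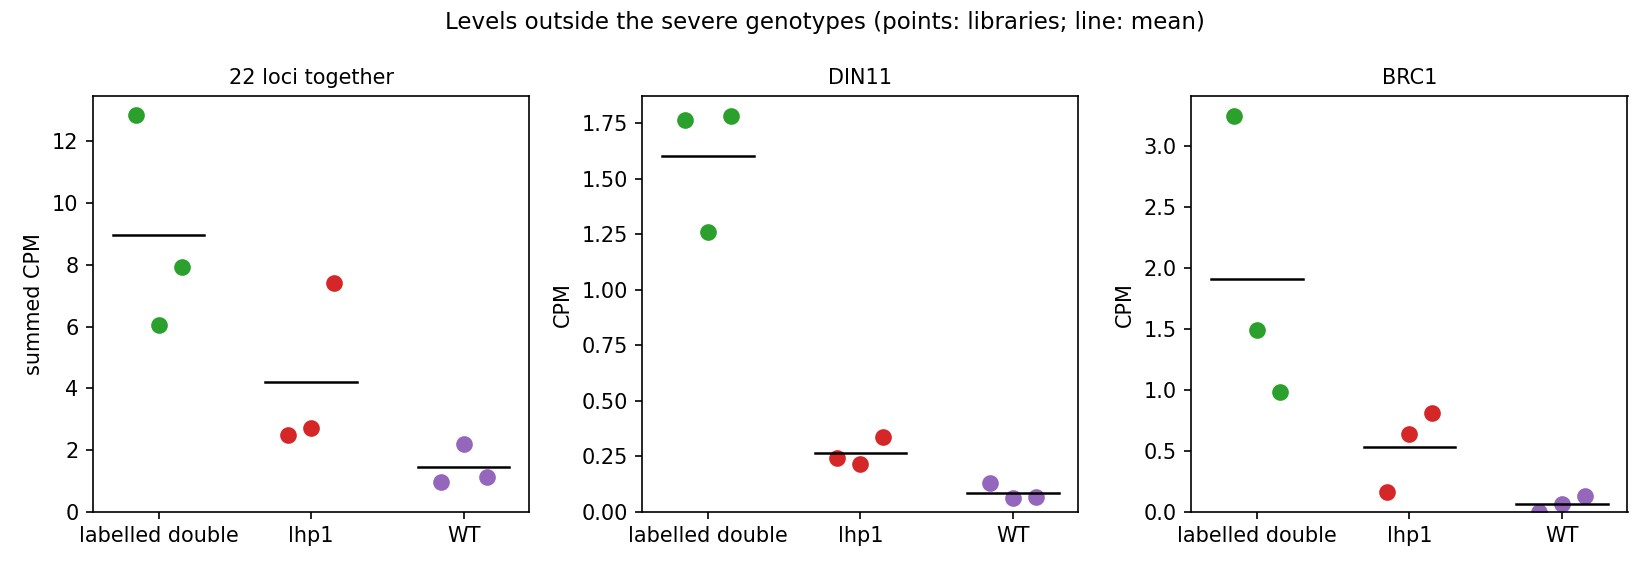
Summed CPM of the 22 loci (left), CPM of DIN11 (middle) and CPM of BRC1 (right) in each library (points) of the labelled double mutant, lhp1 and WT, with the mean (line), on axes from 0. For DIN11 and BRC1 the 3 genotypes do not overlap, with the labelled double mutant highest and WT lowest; for the sum, lhp1 replicate 3 at 7.41 CPM lies above the lowest library of the labelled double mutant.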

How the data were processed

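The authors deposited whole-number read counts, with 1 file of 33602 loci for each library, made with TopHat2 2.1.1, HTSeq and edgeR on TAIR10, per the submitters' processing notes; the strand setting is not given in the sources used here. Per the labels' protocols the libraries were stranded mRNA-seq. Organelle loci (279) had 0 counts.

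CPM used library totals. Counts were fitted in R 4.3.3 with edgeR 4.0.16 (limma 3.58.1): filterByExpr, TMM factors, 1 mean per genotype over all 15 libraries, quasi-likelihood F test, Benjamini-Hochberg adjustment over 20477 loci, threshold 0.05. SEs and 95% intervals were worked out from each F statistic. The fit was tested on simulated data. DESeq2 1.42.0, other scalings, no filter, a replicate block and left-out replicates were alternatives. Python 3.11.15 with pandas 2.3.3 and BLAST 2.17.0 were also used. Same-numbered replicates are not stated to share an origin. P-values measure the spread between the libraries, described in the series as biological repeats, and counting limits cover counting error only.

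The members and the lists were chosen with earlier results of these data known. The rule for named genes took members with a symbol by level, by change and by closeness to the thresholds; as there are only 22 members, all were then described. Gene names, order and promoters came from RefSeq TAIR10.1, matched by locus number for 32835 loci. No protein sequences are shown. The promoter of 1 further locus is not reported here.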

Additional observations from a re-analysis of the deposited data

How the results depend on the processing

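The number of loci meeting the rule depended on its limits: it was 22 as reported, 7 with at most 2 WT counts, 51 with at most 10, 12 with means of at least 2 CPM, 42 with at least 0.5 CPM and 8 with 1 CPM in each severe library. It was 25 with TMM-scaled totals and 18 with 1 CPM in 2 of the 3 libraries of each severe genotype (chosen after seeing the data). Leaving out 1 replicate gave 19 to 46, where the values of 44 and 46 came from leaving out a WT replicate with the limit of 5 counts kept, so that fewer libraries were summed. The labelled triple mutant was higher than emf1 for 3 to 5 loci with 1 replicate left out and for 3 without its replicate 3 and emf1 replicate 1 together (chosen after seeing the data); XTH25, AT2G23110 and AT2G33160 were called in every fit. It was lower for 0 to 2 loci with 1 replicate left out, and for 1, AT2G32200, under the joint removal. The labelled double mutant was higher than lhp1 for 1 locus, DIN11, with DESeq2 and in a fit of only those 2 genotypes, where 3 loci were tested. Same-numbered replicates of the labelled triple mutant and emf1 deviated together with r of -0.286 to -0.099, so the numbers did not pair them. With the replicate block 4 loci remained called higher and 1, AT2G17740 (log2 -1.33), became lower, and no call changed between the labelled double mutant and lhp1. Of 296 values of single loci under alternatives, 268 kept direction and call, 3 lost the call, 10 gained it and 15 changed sign; the cause was not tested.

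All 15 sign changes concern log2 differences between the labelled triple mutant and emf1 that did not pass the test with all libraries. For AT5G24820 they were -0.0030 with DESeq2 size factors, -0.0007 with no filter, -0.0021 with DESeq2 and -0.0254 under the joint removal. For AT2G08986 the value was 0.60 under the joint removal. With 1 replicate left out, values ranged from -0.48 to 0.59 for AT5G24820, -1.39 to 0.20 for AT2G08986, -1.12 to 0.10 for AT2G16190, -4.08 to 0.92 for AT3G01830, -1.61 to 0.15 for AT3G48650 and -0.17 to 0.71 for AT5G14110.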

Other observations

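In the labelled double mutant 77 WT-silent loci averaged at least 1 CPM, and in lhp1 26 did, so that most WT-silent loci read in these genotypes were not among the 22. Next to AT5G14110, AT5G14120, a gene of the major facilitator superfamily of transporters, averaged 1323 ± 323 CPM in the labelled triple mutant and 1153 ± 288 CPM in emf1, against 73.4 ± 45.6 CPM in WT (SD, n = 3 each).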
